A study of Rattus norvegicus with 196 samples.

Results

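Somatostatin (Sst) was followed as 1 transcript, ENSRNOT00000002519, out of 29188 counted in every library. It is the transcript that the study's supplementary list of shared genes names Sst, and the identifier was matched from the name column of that list. Sst had at least 1 read in all 196 libraries, with a median of 685 reads and a range from 1 to 6677.

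Somatostatin is a peptide hormone and neuropeptide that lowers growth hormone release from the pituitary and damps the firing of neurons through G protein coupled receptors. In cortex, hippocampus and basolateral amygdala it is made mainly by GABAergic interneurons that contact the dendrites of excitatory cells, and in the hypothalamus by neurosecretory cells. The precursor is cut by prohormone convertases and stored in dense core vesicles, and its gene is a textbook target of the cAMP-responsive factor CREB.

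The study compared male Long-Evans rats, 2 months old at the start, that drank fluoxetine (FT, 18 mg per kg per day, a selective serotonin reuptake inhibitor) for 6 weeks with rats that drank water only (Sham). The animals were naive, with no stress model. Tissue punches of 10 animals were pooled for each sample, from 40 animals per group, and replicates carry the numbers 1, 3, 4 and 5. A replicate number stood for the same round of processing in FT and Sham. There were 98 FT and 98 Sham samples of 25 regions, with 4 and 4 in each region except the medial preoptic area (mPoA), with 2 FT and 4 Sham, and the arcuate nucleus (Arc), with 4 FT and 2 Sham. Total counts on transcripts had a median of 1.19212e+07 per library. The Sham library of replicate 3 in the solitary tract nucleus (Nts) held 4586 counts, 1 of them on Sst, so the Nts pair of replicate 3 was left out of the levels and ratios below. The pair of replicate 1 in the cingulate cortex (CGC) was left out as well, because the study removed 2 CGC replicates as outliers. Its text does not say which, and replicate 1 was taken here as that pair. The Nts pair of replicate 3 stayed in the fit of FT against Sham within Nts. The label PVN stands for the paraventricular nucleus of the thalamus in the study's region list. Of 25 regions, PVN ranked 2 for the thalamic factor Tcf7l2 and 2 for the glutamate transporter Slc17a6, while it ranked 13 for Avp and 9 for Oxt, the hormones of the hypothalamic nucleus of the same abbreviation. Th and Slc6a3 were highest in the ventral tegmental area (VTA), and Ppp1r1b and Adora2a were highest in the accumbens core (NAcC) and next highest in the accumbens shell (NAcSh). Not every marker was highest in the region it was listed for. Hcrt, listed for the lateral hypothalamus, was highest in the ventromedial hypothalamus and next highest in the lateral hypothalamus. Avp and Oxt were also highest in the ventromedial hypothalamus. Slc5a7, listed for cholinergic regions, was highest in PVN.

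The short stretch around the cAMP response element is shown because it is the regulatory sequence that the gene is best known for. It was taken from RefSeq (build GRCr8, chr11:90461537-90461566, plus strand, matched by symbol), and the capitals mark the element TGACGTCA, which reads the same on both strands.

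Sst: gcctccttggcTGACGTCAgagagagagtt

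The element spans bases 3 to 10 after the annotated RefSeq start. That position depends on the annotation, and where transcription begins was not examined here. The element was present in 612 of 33469 windows of the same kind (250 bases before to 50 after a start, 1.83%). GRCr8 is not the rn5 build to which the reads were aligned, and no count was assigned by these coordinates.

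The Sst level differed widely between replicates of the same region and treatment. Levels are counts divided by library size (CPM) and scaled by TMM factors, which adjust each library for its composition. The lowest of 192 libraries was a Sham library of PVN at 3.31 CPM and the highest an FT library of Arc at 1818 CPM, a ratio of 549.6-fold. The median over regions in Sham was 90.3 CPM in replicate 1, 334 CPM in replicate 3, 17.4 CPM in replicate 4 and 29 CPM in replicate 5. In FT the medians were 95.03, 579, 28.3 and 39.8 CPM in the same order. Replicate 3 thus stood highest and replicate 4 lowest in both groups.

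Within a region and treatment, replicate 3 was the highest of the 4 libraries in 43 of 44 complete groups, and replicates 1 and 3 both lay above replicates 4 and 5 in 42 of 44. The ratio of replicate 3 to replicate 4 in such a group had a median of 22.0-fold and ranged from 2.93-fold to 49.4-fold. On the log2 scale replicates 1 and 3 exceeded replicates 4 and 5 by 2.84 for Sst, against a median of -0.21 over 17307 transcripts, which placed Sst at percentile 99.1. The size of this gap depended on scaling. The 50 most abundant transcripts held a median of 68.2% of the counts in replicate 3, and TMM raised CPM there by a median factor of 2.01 but lowered it by factors of 0.733 and 0.704 in replicates 4 and 5. By total counts alone the Sham medians were 88.2, 161, 23.2 and 43.3 CPM, replicate 3 was highest in 31 of 44 groups, and replicates 1 and 3 lay above 4 and 5 in 33 of 44. What produced the difference between replicates was not tested. Replicate number was therefore kept as a block in every test.

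**Figure D1:**
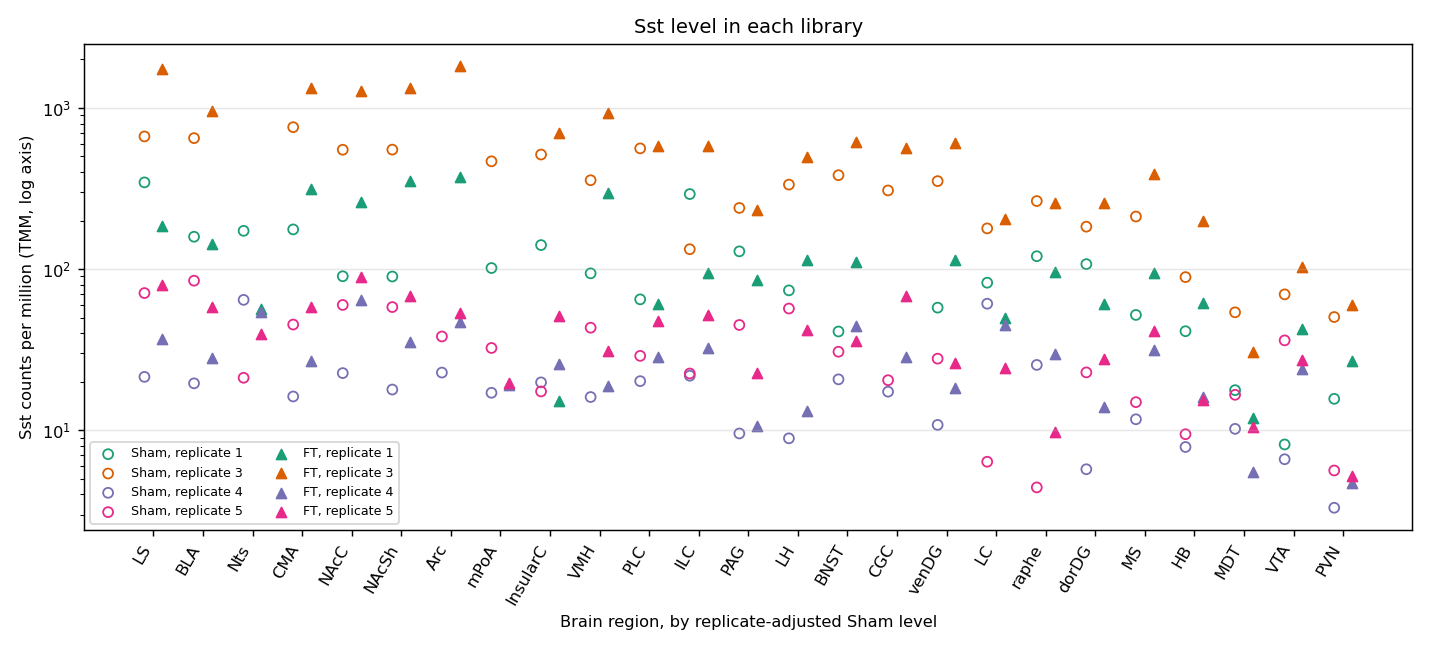
Sst level in each of 192 libraries, in CPM with TMM scaling on a log axis, by brain region (ordered by replicate-adjusted Sham level). Open circles are Sham, filled triangles FT, and colours mark replicates 1, 3, 4 and 5. Replicate 3 is highest in 43 of 44 complete groups, and levels run from 3.31 to 1818 CPM.

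By mean CPM in Sham rats, the lateral septum (LS), the amygdala and the accumbens came first, and the thalamus, the VTA and the habenula (HB) last among regions with all 4 replicates. LS measured 345, 666, 21.5 and 71.0 CPM in replicates 1, 3, 4 and 5, a mean of 276 ± 296 (SD, n = 4). The centromedial amygdala (CMA) measured 176, 759.5, 16.2 and 45.3 CPM, a mean of 249 ± 347 (SD, n = 4). The basolateral amygdala (BLA) measured 159, 649.6, 19.6 and 84.8 CPM, a mean of 228 ± 287 (SD, n = 4). In each of the 3 regions the SD exceeded the mean, because replicate 3 was so high. The accumbens core and shell followed at means of 181 ± 248 and 179 ± 250 CPM (SD, n = 4 each).

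At the other end, PVN measured 15.7, 50.4, 3.31 and 5.63 CPM, a mean of 18.8 ± 21.8 (SD, n = 4). The mediodorsal thalamus (MDT) measured 17.7, 54.0, 10.2 and 16.6 CPM, a mean of 24.6 ± 19.8 (SD, n = 4). The VTA measured 8.17, 69.7, 6.61 and 36.1 CPM, a mean of 30.2 ± 29.7 (SD, n = 4), and its replicate 1 library rested on 13 Sst reads. HB measured 41.2, 89.2, 7.88 and 9.46 CPM, a mean of 36.9 ± 38.1 (SD, n = 4). In replicate 3 the highest of these 4 regions was HB at 89.2 CPM, while the lowest of LS, CMA and BLA was 649.6 CPM.

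Between these ends the Sham means ran in a shallow slope. From higher to lower they were 173 CPM in insular cortex (InsularC), 169 in prelimbic cortex (PLC), 154 in mPoA, 127 in the ventromedial hypothalamus (VMH) and 119 in both the bed nucleus of the stria terminalis (BNST) and the lateral hypothalamus (LH). Infralimbic cortex (ILC) followed at 117 CPM, CGC at 115, the ventral dentate gyrus (venDG) at 112, the periaqueductal grey (PAG) at 106 and the raphe at 104. The lowest of this middle range were Nts at 86.1 CPM, the locus coeruleus (LC) at 82.2, the dorsal dentate gyrus (dorDG) at 79.8 and the medial septum (MS) at 72.7. Arc, with only replicates 4 and 5 in Sham, measured 22.8 and 38.2 CPM, and its mean of 30.5 ± 10.9 (SD, n = 2) cannot be set beside regions that hold replicates 1 and 3. Nts lacks replicate 3 and CGC replicate 1, so their plain means cannot be set beside the complete regions either. In bulk tissue fewer Sst cells and less Sst RNA per cell cannot be told apart.

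Of the 24 pairs of neighbours in this order, 1 differed in the edgeR fit of all Sham libraries with the replicate as a block. Arc lay above HB by 1.78 on the log2 scale (SE 0.63, edgeR adjusted p = 0.0687, with 10.9% of 17008 transcripts called), although its plain mean was lower, because the block accounts for the missing replicates. Adjusted over the 24 neighbours instead, its p was 0.143, so it did not pass there. The other 23 neighbours did not differ beyond their spread, with adjusted p from 0.223 to 1, so the order between adjacent regions is not resolved. Without the block, or by total counts without TMM, no neighbours differed.

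To remove the replicate, the mean log2 CPM of the same replicate and treatment was subtracted from each library. On this scale LS stood at 1.41 ± 0.66, BLA at 1.15 ± 0.53, Nts at 1.04 ± 1.23 (n = 3) and CMA at 0.95 ± 0.58 (SD, n = 4 otherwise). PVN stood at -2.20 ± 0.13, VTA at -1.41 ± 1.54, MDT at -1.35 ± 0.94 and HB at -1.16 ± 0.37. PVN varied least among the low regions, and it was last or next to last in each of the 4 replicates. LS ranked 1 of 23, 2 of 23, 7 of 25 and 2 of 25 in replicates 1, 3, 4 and 5. In the order on this scale, the only neighbours that differed were VTA and PVN (1.45 on the log2 scale, SE 0.56, edgeR adjusted p = 0.0978, with 11.5% of transcripts called), and adjusted over the 24 neighbours its p was 0.268.

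When each region was set against the mean of the others in the Sham fit, Sst was higher in 4 regions and lower in 3. The higher regions were LS by 1.34 (SE 0.33, edgeR adjusted p = 0.00164, with 19.4% of 17008 transcripts called there), Nts by 1.10 (SE 0.39, adjusted p = 0.0305, 31.0% called), BLA by 1.02 (SE 0.34, adjusted p = 0.0461, 9.88% called) and CMA by 0.85 (SE 0.35, adjusted p = 0.0927, 18.0% called). The Nts value rested on 3 libraries, at 1.20, 2.18 and -0.26 on the replicate-adjusted scale in replicates 1, 4 and 5. Nts ranked 2 of 25 in this fit, 7 without replicate 4, and 1 without replicate 1 or replicate 5. The accumbens, next in the order of mean CPM, was not called, with adjusted p of 0.240 in NAcC and 0.3498 in NAcSh. The lower regions were PVN at -2.58 (SE 0.49, adjusted p = 2.19e-05, 20.0% called), MDT at -1.46 (SE 0.45, adjusted p = 0.0164, 16.7% called) and HB at -1.45 (SE 0.44, adjusted p = 0.0139, 19.4% called). A high share of all transcripts distinguishes these regions, so the calls for Sst are not particular to it. The ends of the order, LS and PVN, differed by 3.76 on the log2 scale (SE 0.59, edgeR adjusted p = 8.96e-07, with 13.1% of transcripts called between them), a pair chosen as the ends of the same data. Without the replicate block the difference was 3.91 and its adjusted p was 0.187.

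**Figure D2:**
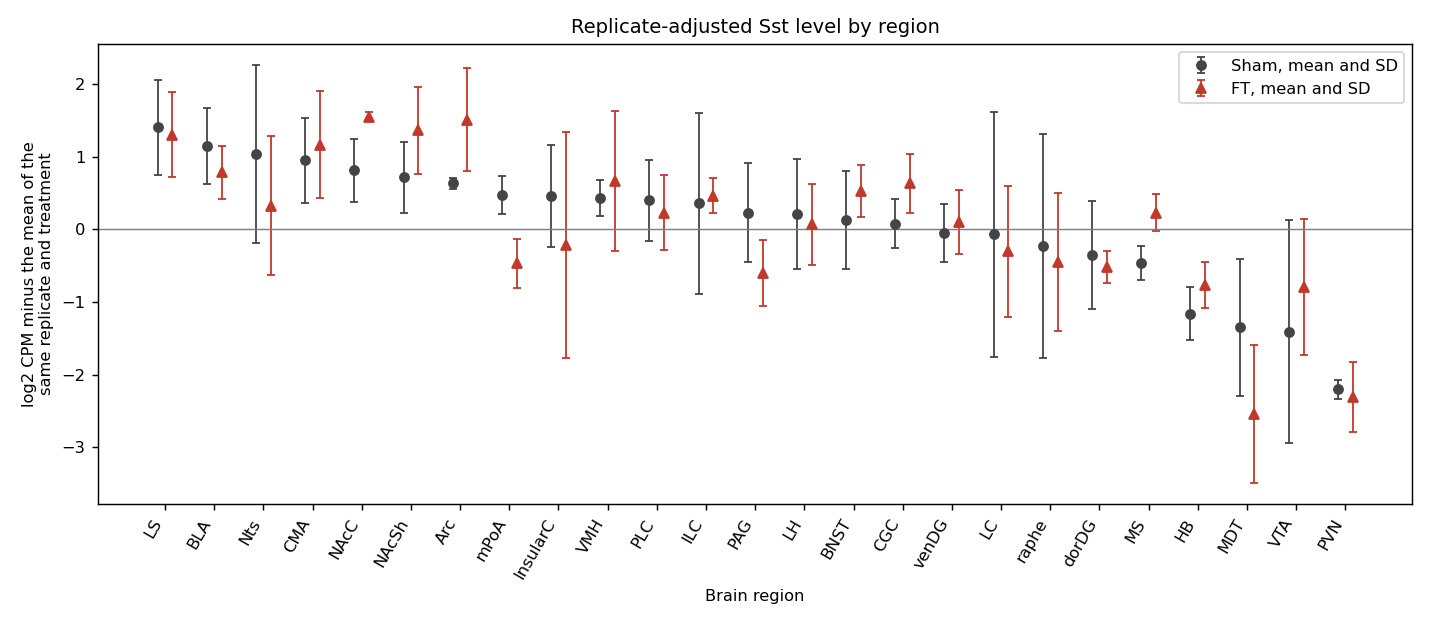
Replicate-adjusted Sst level by region, as log2 CPM minus the mean of the same replicate and treatment, with the mean and SD over 2 to 4 replicates. Grey circles are Sham and red triangles FT. LS, BLA, CMA and the accumbens lie above 0 in both groups, and MDT, VTA, HB and PVN lie below 0 in both.

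The orders of FT and Sham rats had a Spearman rho of 0.781 over 25 regions on the replicate-adjusted scale and 0.658 by mean CPM, given as a description because the regions come from the same pools of animals. Of the 8 highest regions 6 were shared on the adjusted scale and 5 by mean CPM, and of the 5 lowest 4 and 3. The values by mean CPM include the regions that lack replicates. Among these, Arc ranked 22 in Sham and 1 in FT by mean CPM, and mPoA ranked 8 and 24. NAcC was the highest region in FT at 1.56 ± 0.06 (SD, n = 4), against 0.82 ± 0.44 in Sham. Arc followed at 1.52 ± 0.71 and NAcSh at 1.37 ± 0.60, while MDT was the lowest at -2.54 ± 0.95 (SD, n = 4 each). In the FT fit, 6 regions exceeded the mean of the others, namely Arc by 1.52 (23.2% of 16553 transcripts called), NAcC by 1.43 (23.0%), NAcSh by 1.33 (16.6%), LS by 1.27 (18.1%), CMA by 1.16 (23.0%) and VMH by 0.77 (15.0%), with edgeR adjusted p from 6.30e-06 to 0.0777. MDT at -2.65 (18.5% called), PVN at -2.57 (32.8%) and HB at -0.98 (33.5%) were lower, with edgeR adjusted p of 4.63e-07, 3.48e-07 and 0.0281.

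FT against Sham within each region gave a positive Sst fold change in 20 of 25 regions, with a median log2FC of 0.41. With edgeR, the replicate block and a call at an absolute log2FC of at least 0.32 and an adjusted p of at most 0.1, Sst was called higher in 1 region, Arc, and lower in 0. In Arc 24.6% of 14464 transcripts were called (13.7% higher), against 1.93% of all tests over the 25 regions (4.33% with DESeq2). The unadjusted edgeR p was under 0.05 in 11 regions, of which 10 were positive. Such p values were frequent among all transcripts, from 935 of 13011 in ILC to 4767 of 14464 in Arc. DESeq2 with the same block, the tool of the study, called Sst higher in 7 regions and lower in 0. These were NAcC, MS, HB, NAcSh, CGC, CMA and BNST, where it called 8.15%, 6.66%, 2.07%, 7.23%, 2.21%, 4.7% and 2.22% of transcripts, and it did not call Arc (adjusted p = 0.106). The fold changes from both tools were close, as the plot of fold change by tool shows, and the calls differed through the adjusted p. A transcript entered the study's list when it was called in at least 2 regions of these same samples, so these tests are not independent evidence that Sst responds.

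**Figure D3:**
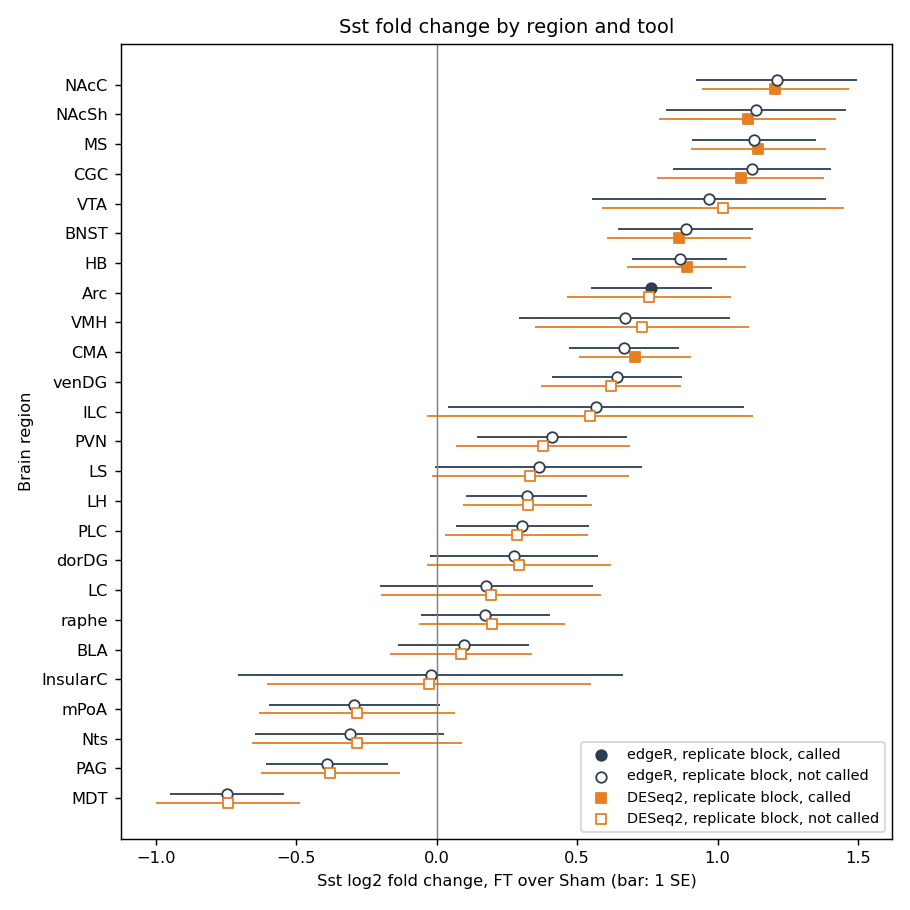
Sst log2 fold change of FT over Sham in each of 25 regions, with 1 SE, from edgeR (circles) and DESeq2 (squares), both with the replicate block. Filled symbols were called. Estimates from both tools nearly coincide, from 1.21 in NAcC to -0.75 in MDT, while edgeR called Arc and DESeq2 called 7 other regions.

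The accumbens showed the largest positive fold change. In NAcC Sham libraries measured 90.3, 550.2, 22.6 and 59.9 CPM and FT libraries 259, 1275, 64.7 and 89.5 CPM in replicates 1, 3, 4 and 5. FT was higher in each pair, while the groups overlapped across replicates. The log2FC was 1.21 (SE 0.29, edgeR adjusted p = 0.145 with 0.229% of transcripts called, DESeq2 adjusted p = 0.000873). Genes of striatal projection neurons stood beside it in NAcC, where Adora2a had a log2FC of 0.77, Ppp1r1b of 0.97, DRD2 of 0.80 and PENK of 0.98. DESeq2 called these 4 higher (adjusted p = 0.0568, 0.0210, 0.0653 and 0.0344) and edgeR called none of them (adjusted p from 0.193 to 0.223). Their part in the Sst value was not tested.

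In NAcSh Sham libraries measured 90.0, 551, 17.9 and 58.2 CPM and FT libraries 349.8, 1336, 35.5 and 68.2 CPM. The pair of replicate 1 differed most, with a log2 ratio of 1.96, and that of replicate 5 least, at 0.23. The log2FC was 1.14 (SE 0.32, edgeR adjusted p = 0.139 with 0.0149% called, DESeq2 adjusted p = 0.0168).

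MS, which sends GABAergic and cholinergic fibres to the hippocampus, measured 52.0, 212, 11.7 and 15.0 CPM in Sham and 94.4, 390.1, 31.5 and 41.4 CPM in FT. Its 4 ratios lay close together, from 0.86 to 1.46 on the log2 scale. The log2FC was 1.13 (SE 0.22, edgeR adjusted p = 0.132 with 0.0602% called, DESeq2 adjusted p = 0.000602).

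HB measured 41.2, 89.2, 7.88 and 9.46 CPM in Sham and 61.6, 198, 16.0 and 15.5 CPM in FT. The log2FC was 0.86 (SE 0.17), and Sst ranked 20 of 14297 transcripts by p there, but edgeR called 0 transcripts in HB (0.0%) and the adjusted p for Sst was 0.419 (DESeq2 0.0102). FT lay above Sham in every pair, at log2 ratios from 0.58 to 1.15.

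BNST measured 41.0, 382, 20.7 and 30.7 CPM in Sham and 111, 617, 44.6 and 35.9 CPM in FT, a log2FC of 0.89 (SE 0.24, edgeR adjusted p = 0.348 with 0.0589% called, DESeq2 adjusted p = 0.0563). CMA measured 176, 759.5, 16.2 and 45.3 CPM in Sham and 312, 1336, 27.0 and 57.9 CPM in FT, a log2FC of 0.67 (SE 0.20, edgeR adjusted p = 0.387 with 0.00742% called, DESeq2 adjusted p = 0.0319). Both belong to the extended amygdala, and in both the smallest ratio was that of replicate 5, at 0.22 and 0.35.

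CGC, with replicates 3, 4 and 5, measured 308, 17.4 and 20.5 CPM in Sham and 560.2, 28.5 and 68.5 CPM in FT, a log2FC of 1.12 (SE 0.28, edgeR adjusted p = 0.154 with 0.465% called, DESeq2 adjusted p = 0.0275). With the left-out pair kept, the log2FC was 1.66 and the edgeR adjusted p 0.529. Arc, which edgeR called, rests on 2 pairs, with Sham at 22.8 and 38.2 CPM and FT at 47.3 and 53.3 CPM in replicates 4 and 5. Its log2FC was 0.76 (SE 0.21, edgeR adjusted p = 0.066), and the 2 FT libraries of replicates 1 and 3, at 372 and 1818 CPM, have no Sham partner.

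MDT went the other way. Sham libraries measured 17.7, 54.0, 10.2 and 16.6 CPM and FT libraries 11.9, 30.8, 5.55 and 10.4 CPM. FT was lower in each of the 4 pairs, with a mean log2 ratio of -0.73 ± 0.13 (SD, n = 4), the narrowest spread among regions with 4 pairs. The log2FC was -0.75 (SE 0.20, edgeR adjusted p = 0.494 with 0.00761% called, DESeq2 adjusted p = 0.148), and neither tool called it.

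Counted over pairs, FT lay above Sham in all 4 pairs of 6 regions (BNST, CMA, HB, MS, NAcC and NAcSh) and below in all 4 pairs of 1 region (MDT), out of 21 regions with 4 pairs. The share of all transcripts higher in every pair was 12.2%, 12.5%, 11.3%, 14.3%, 15.2% and 13.7% in those 6 regions, and 7.39% were lower in every pair in MDT. FT was higher in 68 of 94 pairs in all. By replicate it was higher in 11 of 22 regions in replicate 1, 19 of 22 in replicate 3, 22 of 25 in replicate 4 and 16 of 25 in replicate 5. Without replicate 3, FT was higher in 49 of 72 pairs and the log2FC was positive in 18 of 25 regions, of which edgeR called CGC and Arc.

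The mean log2 ratio over regions was 0.14, 0.67, 0.61 and 0.37 in replicates 1, 3, 4 and 5, an average of 0.45 ± 0.25 (SD, n = 4), above 0 in 4 of 4 replicates. The exact two-sided sign-flip permutation test over the 4 replicates gave p = 0.13, which is the smallest value it can give, so this test cannot reach 0.05. Of 17307 transcripts, 13.9% also had a mean above 0 in all 4 replicates and 14.7% a mean below 0 in all 4.

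**Figure D4:**
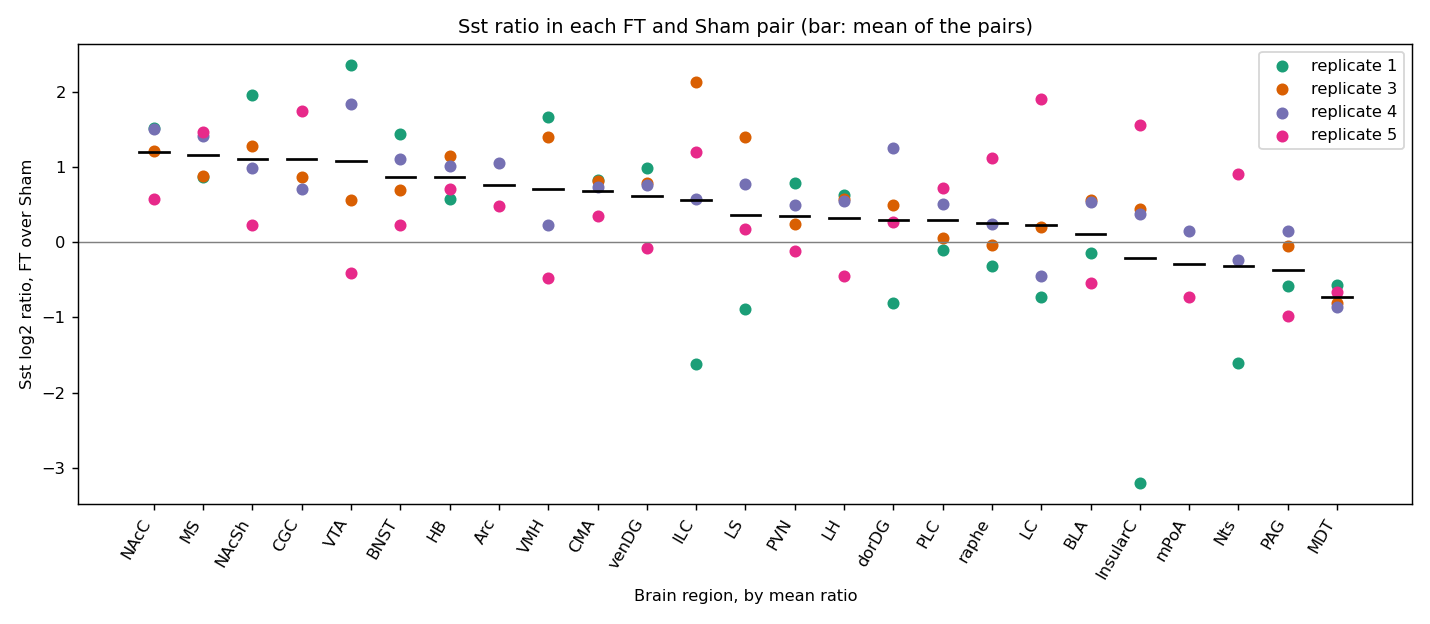
Sst log2 ratio of FT over Sham in each of 94 pairs, by region in the order of the mean, with colours for replicates 1, 3, 4 and 5 and a bar at the mean of the pairs. FT is higher in 68 of 94 pairs. MDT is the only region of 4 pairs with all of them below 0.

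Several regions had a mean that rested on 1 library. In InsularC the FT library of replicate 1 held 195 Sst reads (15.2 CPM against 141 in its Sham partner, a log2 ratio of -3.20), while the other 3 pairs had FT higher by 0.37 to 1.55. Its log2FC was -0.022 (SE 0.68), and 0.80 without replicate 1. In ILC the Sham library of replicate 3 held 21 Sst reads, and the pairs ranged from -1.62 to 2.12. Its Sham library of replicate 1 held 82.9% of its counts in the 50 most abundant transcripts and measured 292 CPM with TMM but 96.6 by total counts. The log2FC in ILC ran from 0.073 without replicate 3 to 1.32 without replicate 1 (edgeR adjusted p = 0.1001), and was 0.96 by total counts. The VTA pair of replicate 1 had a ratio of 2.36 against a Sham library of 13 reads (6.37 CPM by total counts, exact 95% Poisson interval 3.39 to 10.9), and the log2FC in VTA was 0.97 (SE 0.42, edgeR adjusted p = 0.388). LS, the region with the highest Sham level, had ratios of -0.89, 1.40, 0.77 and 0.17, a log2FC of 0.36 (SE 0.37), and -0.036 without replicate 3.

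In the remaining regions neither tool called Sst. VMH (0.67), venDG (0.64), ILC (0.57), PVN (0.41), LH (0.32), PLC (0.31), dorDG (0.28), LC (0.18), raphe (0.17) and BLA (0.10) had a positive log2FC. PAG (-0.39), Nts (-0.31) and mPoA (-0.29) had a negative log2FC. The Nts fit held the shallow pair of replicate 3, and without it edgeR called 0 of 12953 transcripts there. In these regions edgeR called 9.59% of transcripts in mPoA, 6.6% in raphe, 4.16% in Nts, 0.0965% in LH, 0.0307% in ILC, 0.029% in LS and 0.0235% in LC, and 0.0% in VMH, venDG, PVN, PLC, dorDG, BLA, PAG, InsularC and VTA. In raphe, the seat of the serotonin neurons of the brain, Sham libraries measured 120.2, 264, 25.5 and 4.42 CPM and FT libraries 96.2, 257, 29.96 and 9.79 CPM, so that only the pair of replicate 5 differed by more than 0.5 on the log2 scale, at 1.12.

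Whether the response differed between regions was tested in 1 fit of 188 libraries with a block for each pair. The region by treatment interaction of Sst had F = 1.503 (unadjusted p = 0.0921, edgeR adjusted p = 0.826). It was called for 1 of 16788 transcripts (0.00596%), so a difference in the Sst response between regions was not detectable in this fit. The share called depended on the model. With a replicate by treatment effect added it was 3.9%, and the edgeR adjusted p of Sst was 0.297. In fits of 2 regions at a time, MDT was set against each of the 6 regions in which FT was higher in every pair, a choice made after the ratios were seen. The log2FC in MDT minus that in the other region was -1.45 (CMA), -1.60 (BNST), -1.61 (HB), -1.88 (NAcSh), -1.88 (MS) and -1.97 (NAcC), with SE from 0.25 to 0.38. The edgeR adjusted p ranged from 0.104 against MS to 0.756 against CMA, and Sst was called in 0 of the 6, with unadjusted p from 8.84e-06 to 0.000231. The share of transcripts called in these fits was 0.00691% with CMA and 0.0% with the others.

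Genes that act beside Sst could be followed only where the same list paired them with an identifier. Of the somatostatin system, Sst alone was identified out of 7 (the peptide cortistatin and the 5 receptors were not analysed here). Members were identified only among transcripts called in at least 2 regions of these same samples. The counts of calls below therefore cannot be read against the share called over all transcripts. The positive shares and median fold changes of the lists cannot be read against those of all transcripts either. Of 39 neuropeptides fixed as a list, 13 other than Sst were identified. Over the regions, 140 of 212 tests were positive, with 10 called higher and 3 called lower by edgeR (1.01% and 0.913% over all transcripts), and 12 of these 13 calls lay in Arc, mPoA and raphe. The median of their regional medians was 0.24, against 0.010 for all transcripts. For these peptides DESeq2 made 36 calls higher and 8 lower. Cck, a peptide of another class of interneurons and of cortical pyramidal cells, had a positive log2FC in 23 of 25 regions (median 0.68) and was called in Arc (1.77). Gal, the galanin precursor, had one in 21 of 24 (median 0.64), called in mPoA, raphe and Arc. PENK, the enkephalin precursor, was positive in 13 of 25 (median 0.065), and Vip, a peptide of interneurons that inhibit Sst cells, in 14 of 25 (median 0.13).

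The genes that process and store such peptides split. Of 19 listed, 9 were identified, and 115 of 225 tests were positive. By edgeR 6 were called higher and 6 lower, 11 of these calls in Arc, mPoA and raphe. DESeq2 called 27 higher and 16 lower. Vgf, a granin-like secreted protein, had a positive log2FC in 25 of 25 regions (median 0.93). Pcsk1n, an inhibitor of prohormone convertase, had one in 21 of 25 (median 0.77). The convertase Pcsk2 was negative in 25 of 25 (median -0.40), as was the carboxypeptidase Cpd (median -0.44). By edgeR each of the 4 was called in Arc and in 1 other region.

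Among the identified genes of GABAergic interneurons, Gad2, GRIN3A, Gabrg1 and Synpr lay mostly on the opposite side to Sst, while Pvalb and Vip did not. Of 30 listed, 6 were identified, and 34 of 150 tests were positive, with a median of -0.35. By edgeR 1 was called higher and 6 lower (1.01% and 0.913% over all transcripts), 6 of the 7 in Arc, mPoA and raphe. DESeq2 called 4 higher and 18 lower (4.33% over all transcripts in either direction), also outside Arc, mPoA and raphe. The calls by gene below are those of edgeR unless DESeq2 is named. Gad2, the GABA-synthesizing enzyme that Sst interneurons also carry, had a positive log2FC in 1 of 25 regions (median -0.45) and was called lower in raphe and Arc. GRIN3A, an NMDA receptor subunit found in Sst interneurons, had one in 0 of 25 (median -0.41). It was called in none by edgeR and lower in LH by DESeq2. Pvalb, the marker of the fast-spiking class, had one in 15 of 25 (median 0.26), called in Arc (1.42). Gabrg1, a GABA-A receptor subunit, had one in 1 of 25 (median -0.78), called lower in mPoA and Arc. Synpr had one in 3 of 25 (median -0.42), called lower in LH. In NAcC, for example, the log2FC was 1.21 for Sst and -0.23 for Gad2, and in MS it was 1.13 and -0.29. Gad2 is not confined to Sst cells, so in bulk tissue these values do not describe Sst cells alone. In Sham Gad2 was highest in LS, NAcSh and NAcC.

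**Figure D5:**
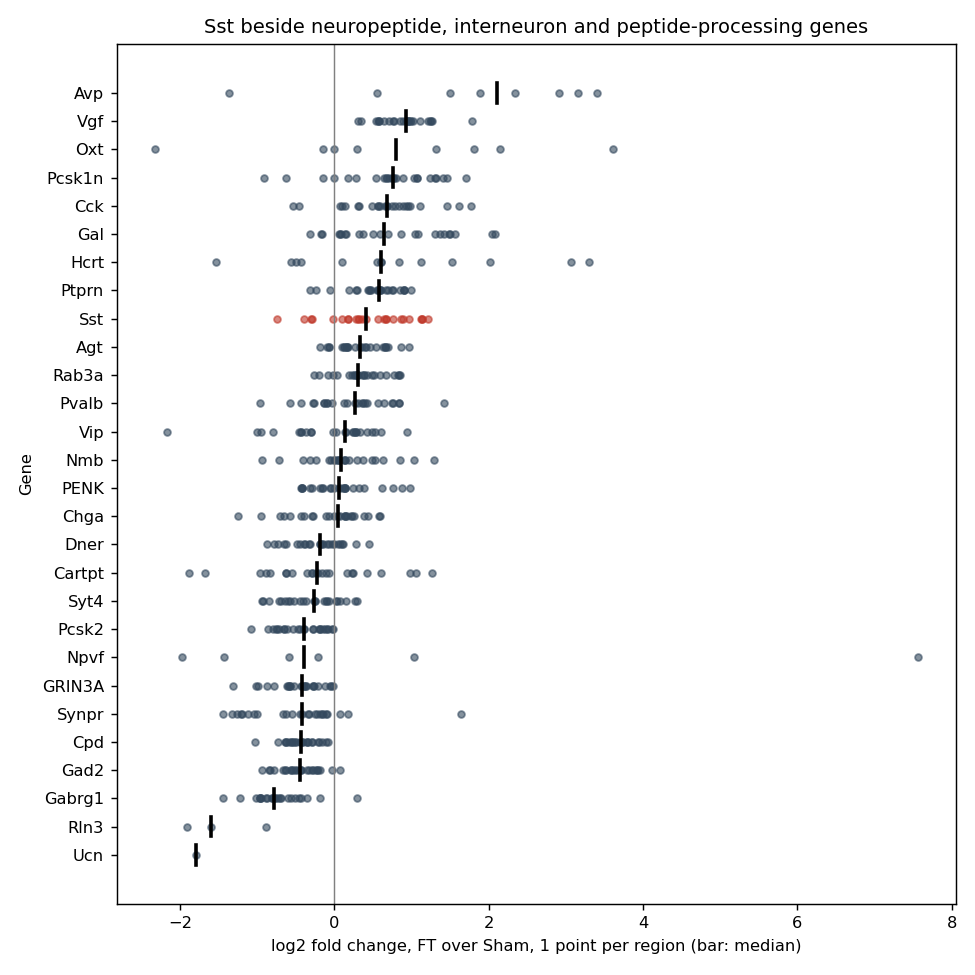
log2 fold change of FT over Sham from edgeR for Sst (red) and for the identified neuropeptide, interneuron and peptide-processing genes, with 1 point for each region tested and a bar at the median. Sst has a median of 0.41, Vgf 0.93 and Cck 0.68, while Gad2 has -0.45 and Pcsk2 -0.40.

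Markers of other cell types are given beside these values, with levels by total counts without TMM. The 2 oligodendrocyte markers identified of 10, Opalin and Ermn, were positive in 11 of 50 tests with a median of -0.42 (0 called higher and 1 lower by edgeR, 0 and 9 by DESeq2), and their summed level had a median of 225 CPM in FT (range 20.4 to 961) and 318 CPM in Sham (19.7 to 1461). The astrocyte gene Gja1, 1 of 6, was positive in 3 of 25 regions (median -0.33, 0 called higher and 1 lower by edgeR, 0 and 2 by DESeq2), and its level had a median of 261 CPM in FT (80.0 to 474) and 333 CPM in Sham (34.7 to 730.1). The choroid plexus gene Ttr, 1 of 3, was positive in 9 of 25 (median -0.88, 1 called higher and 0 lower by edgeR, 3 and 5 by DESeq2), from 0.513 to 52580 CPM in FT and from 1.29 to 25150 CPM in Sham. Their part in the Sst values was not tested.

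Across regions in Sham, the named transcripts whose mean levels followed Sst most closely were Wnt7a (r = 0.669), Phactr1 (0.665), PENK (0.659), Actl6b (0.659), Wdr5 (0.657), Bcr (0.653), Pdxk (0.648) and Ets2 (0.641), over 25 regions and 1844 named transcripts. The median r over those transcripts was 0.010 and the 95th percentile 0.434. PENK was highest in BLA, NAcC and NAcSh and lowest in PVN, and it came first on the replicate-adjusted scale (r = 0.677). These values are descriptions over regions that share pools of animals, libraries and scaling. Across the 94 pairs, the log2 ratio of Sst ran most closely with those of Mif, a cytokine (r = 0.818), Mrpl34, a protein of the mitochondrial ribosome (0.795), Lin7b, a scaffold at synapses (0.763), Abhd8 (0.752) and Cox6a1, a subunit of cytochrome c oxidase (0.746). The median for named transcripts was 0.155 and the 95th percentile 0.558, and both members of each ratio share their libraries and scaling factors. The element TGACGTCA printed above was found in the RefSeq window of 1 of 4 genes with an entry among these, Mif, and in 0 of 7 among the genes that followed the regional level.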

How the data were processed

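The authors deposited raw counts per Ensembl transcript for each sample, made by STAR alignment of 76 bp paired reads to rn5 and HTSeq counting, without normalization. The versions of these tools are not given in the sources used here. Sst and the lists were chosen with earlier results of these data known, and gene names came only from the study's supplementary list (1845 named of 1989 identifiers, all found in the files). Named genes were the identified members of fixed lists, the 8 named transcripts most correlated with the regional Sham level of Sst and the 5 most correlated with its pair ratios.

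Each region was fitted across all transcripts with edgeR 4.0.16 in R 4.3.3 (quasi-likelihood test, TMM, filterByExpr at its default minimum count, 10, and minimum total, 15, replicate number as a block), with Benjamini-Hochberg adjustment within a region. SE was taken as the size of the log2FC over the square root of F. DESeq2 1.42.0 was the alternative, and log2 CPM used a prior count of 2. In the fit of all regions the common dispersion came from 1000 transcripts drawn with a fixed seed. The study's methods name replicate numbers as batches. Deviations of FT and Sham from their group means correlated above 0.1 within 91 of 94 pairs, and in all pairs of 23 of 25 regions. The exceptions were mPoA, with 1 of 2 pairs, and Arc, where edgeR called Sst, with 0 of 2. In both, the group means of FT and Sham rest on different replicates. The scripts were tested on simulated counts of raphe, where edgeR called 72 of 100 transcripts changed 2-fold and 98 of 100 changed 4-fold, with 21 unchanged ones among 12337. The simulation gave every transcript the same dispersion, so these shares are not the power for Sst in the data. Pools, not animals, are the replicates. Intervals cover counting error only. The dorCA1 and venCA1 regions were not analysed here.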

Additional observations from a re-analysis of the deposited data

Results flagged for a closer look

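In groups of 4 libraries, 14 of 44 had 1 library far from the other 3 (the gap to the nearest divided by the range exceeded Dixon's 95% critical value for 4 values), where chance flags about 1 in 20 groups, and in each of the 14 it was the highest, replicate 3. In FT these were BLA (959 CPM), BNST (617 CPM), ILC (579 CPM), InsularC (699 CPM), LC (206 CPM), LS (1755 CPM), NAcC (1275 CPM), PLC (583 CPM) and venDG (606 CPM). In Sham they were BNST (382 CPM), NAcC (550.2 CPM), NAcSh (551 CPM), PLC (561 CPM) and venDG (351 CPM). The test assumes values near a normal spread, which CPM over replicates of such unequal level do not have. Among within-pair log2 ratios, 1 of 21 regions had such a value, LH in replicate 5 at -0.45 against 0.55 to 0.62 in the other 3 pairs.

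The Sst fold change in MDT was set apart because FT was lower in all 4 pairs there and higher in all 4 pairs of 6 other regions. The difference in log2FC was -1.60 from BNST, -1.45 from CMA, -1.61 from HB, -1.88 from MS, -1.97 from NAcC and -1.88 from NAcSh, and none passed the adjusted p of 0.1 in edgeR (lowest 0.104, from MS).

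The CGC pair of replicate 1, left out of the comparisons, had a log2 ratio of FT over Sham of 1.48 by total counts, with 932 Sst reads in FT and 2443 in Sham.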

How the results depend on the processing

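The 7 DESeq2 calls and the 7 calls of edgeR without the low-count filter (CGC, NAcSh, NAcC, MS, BNST, VTA and Arc) stand against 1 call in the main analysis. DESeq2 gave log2FC of 1.08 in CGC, 1.11 in NAcSh, 1.21 in NAcC, 1.15 in MS, 0.86 in BNST, 0.71 in CMA and 0.89 in HB, now called, and 0.76 in Arc, no longer called. Without the filter the called values were 1.15 in CGC, 1.15 in NAcSh, 1.23 in NAcC, 1.20 in MS, 0.89 in BNST and 1.00 in VTA. At an adjusted p of 0.05, edgeR called Sst in 0 regions (unadjusted p under 0.05 in 11, and DESeq2 7 regions at 0.1).

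Without the replicate block Sst was called in 0 regions by edgeR (unadjusted p under 0.05 in 1). Arc then had a log2FC of 4.31 and its call was lost, and mPoA had -3.05, because their unpaired libraries belong to other replicates. Values that turned sign without the block were InsularC 0.16, raphe -0.088 and LC -0.0095 in edgeR and 0.19, -0.10 and -0.024 in DESeq2. DESeq2 without the block called mPoA lower (-3.04), making 1 region called lower, and Arc higher. By total counts without TMM, raphe had -0.050 and the Arc Sham mean was 49.96 CPM. LS minus PVN without the block was 3.91 and was not called. The number of Sham neighbours that differed was 0 without the block and 0 by total counts.

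Leaving out 1 replicate at a time gave 1 to 2 regions called higher (Arc without replicate 1, CGC and Arc without replicate 3, NAcSh without replicate 5, CGC without replicate 4) and 0 to 1 neighbours that differed. Without replicate 4 or 5 only 23 regions were fitted. Arc and mPoA were left out there, so the Arc call was not tried without either of its pairs. CGC held only replicates 4 and 5 without replicate 3, and only 3 and 5 without replicate 4. The log2FC then ran from 0.71 to 1.27 in CGC and from 0.81 to 1.38 in NAcSh. Values near 0 turned sign, running from -0.095 to 0.31 in BLA, -0.65 to 0.80 in InsularC, -0.31 to 0.45 in LC, -0.036 to 0.79 in LS, -0.81 to 0.29 in Nts, -0.059 to 0.65 in dorDG and -0.077 to 0.35 in raphe. The interaction of Sst had adjusted p from 0.195 to 1 over its 8 alternatives. With a replicate by treatment effect added, it was called for 654 of 16788 transcripts. Without replicate 5 it was called for 215 of 16888 (1.27%), and Sst had an unadjusted edgeR p of 0.00871 and an adjusted p of 0.195. Where the cause is not given by the construction of the alternative, it was not tested. Median-ratio size factors changed no call. The median log2FC over all transcripts of a region moved by over 0.1 between tools in some regions, most in ILC, from 0.050 with edgeR to -0.37 with DESeq2.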

Other observations

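The Nts libraries of replicate 3 were left out of the levels, the pair ratios and the main fits across regions. The fit of FT against Sham within Nts held them. The Sham library held 1 Sst read of 4586 counts, or 218 CPM with an exact 95% Poisson interval from 5.52 to 1215, and the FT library 253 reads, or 55.7 CPM (49.0 to 63.0). At this depth a difference between them was not detectable.

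Among striatal genes, Adora2a had a positive log2FC in 18 of 25 regions (median 0.47) and Ppp1r1b in 21 of 25 (median 0.43), both called higher in LH by edgeR and in LH and NAcC by DESeq2. The peptide hormones Avp and Hcrt passed the filter in 8 and 14 regions. Avp was positive in 7 of these and was called in CMA (2.91) and Arc (3.15), and Hcrt was positive in 10 and was called in mPoA and Arc. The microglial genes C1qa and Cx3cr1 lay on opposite sides, with 23 and 3 of 25 regions positive and medians of 0.37 and -0.62.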
